A study of Homo sapiens with 6 samples.

Results

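GLA, HEXA, NEU1 and CTSA are 4 enzymes of the lysosome, the acidic organelle in which cells take apart sugars, lipids and proteins. They were taken by gene name from the 4101 genes of the deposited table, and all 4 were found, 1 row each. RNA sequencing was done on SH-SY5Y, a human neuroblastoma cell line with wild-type genotype that the study used as a dopaminergic cell model. The METH-treatment group was 3 samples given 2 mM METH (methamphetamine, a psychostimulant) for 24 h, and the PBS-treatment group was 3 samples given PBS (phosphate-buffered saline) instead. Cells of both groups grew in the same MEM and F12 medium with fetal bovine serum, and the cell line is a tumour line, not a neuron. The sample labels name day 0 for each sample, and the 24 h used here is that of the treatment protocol. The libraries are named METH 1, METH 2 and METH 3, and PBS 10, PBS 11 and PBS 12 by the numbers of the deposited columns, which differ from those of the PBS labels.

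Sugar chains on lipids and proteins are removed in lysosomes from the free end, residue by residue, and each step has its own hydrolase. GLA, alpha-galactosidase A, takes the last galactose from globotriaosylceramide, and its loss causes Fabry disease. HEXA is the alpha subunit of beta-hexosaminidase A, which removes N-acetylgalactosamine from GM2 ganglioside, the lipid stored in neurons in Tay-Sachs disease. NEU1 is the sialidase that removes terminal sialic acid, lost in sialidosis. CTSA, cathepsin A or protective protein, is a serine carboxypeptidase that holds NEU1 and the beta-galactosidase GLB1 in a complex and keeps NEU1 active, so that its loss, galactosialidosis, lowers both partners. Neurons are rich in gangliosides, the sialic acid-bearing lipids on which NEU1 and HEXA act in turn.

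The table holds genes that the authors had selected as differing between these same libraries, and genes outside it were not analysed here. Its columns are headed FPKM, but the values are whole multiples of 1 step per column, so they are reads scaled to library size (CPM, counts per 1 M reads) without a length correction. From the steps, the libraries were scaled to between 85.7 and 111 M reads each. The 4 members had at least 1328 reads in every library, where counting alone gives an error of 2.74%, less than the spread between libraries. No pair of libraries had identical values. Nothing states whether the 3 samples of a group came from separate cultures, so p-values measure the spread between these libraries, which may be technical.

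The genes lie on 4 chromosomes. By GENCODE release 29 on GRCh38 (the build of the authors is not given in the sources used here), GLA (ENSG00000102393) spans chrX:101397803-101408012 on the minus strand, HEXA (ENSG00000213614) chr15:72340919-72376476 on the minus strand, NEU1 (ENSG00000204386) chr6:31857659-31862906 on the minus strand, and CTSA (ENSG00000064601) chr20:45890144-45898820 on the plus strand. All 4 are protein-coding genes. HEXA shares 617 bp of exon, 4.89% of its exonic length, with the same-strand gene AC009690.1, which is also in the table, at 3.13 ± 1.52 CPM in the PBS group and 6.73 ± 1.18 CPM in the METH group (SD, n = 3 each). On the other strand, HEXA shares 1273 bp of exon (10.1%) with AC009690.2 and 364 bp with HEXA-AS1, and CTSA shares 1038 bp with NEURL2, 430 bp with AL008726.1 and 200 bp with PLTP. Whether reads were counted by strand is not given in the sources used here, so reads in these stretches cannot be assigned with certainty.

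Promoter sequence is shown for the letters CACGTG, the E-box core that the lysosomal gene regulator TFEB is known to bind. NEU1 and CTSA both carry them, and they were picked with their differences known. RefSeq promoters (GRCh38.p14, 250 bases before to 50 after the start) matched 3 of the 4 members, HEXA being the other. The stretches below run 5′ to 3′ on the strand of the gene, with CACGTG in capitals. Distances are from the RefSeq start. The stretches cover 150 to 86 bases before the start of NEU1 (chr6:31862907-31862971), 46 to 17 bases before the RefSeq start of CTSA (chr20:45891289-45891318) and 150 to 88 bases before that of GLA (chrX:101408013-101408075). The CTSA stretch lies inside the GENCODE span of the gene given above, whose first transcripts start upstream, and all of its 30 bases are annotated UTR of other CTSA transcripts, whereas those of NEU1 and GLA hold no annotated UTR.

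NEU1: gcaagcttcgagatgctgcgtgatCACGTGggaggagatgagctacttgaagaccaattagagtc
CTSA: ctgtCACGTGgcgccggagttCACGTGact
GLA: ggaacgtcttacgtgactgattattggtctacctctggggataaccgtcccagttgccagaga

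NEU1 has 1 such match, at 126 bases before its start. CTSA has 2, at 42 and 25 bases before its start, and both extend to the longer word GTCACGTG on one strand or the other. The GLA promoter holds no CACGTG in these 300 bases. The word reads the same on both strands and lies inside GTCACGTG, so the 2 searches overlap. CACGTG occurs in 7.43% of the 27305 RefSeq promoters of this length and in 10.0% of the 2810 that belong to genes of the table, and GTCACGTG occurs in 2.53% and 3.88% of them. The cAMP response element TGACGTCA, also searched on both strands, is in none of the 3 member promoters and in 1.98% of all promoters. CACGTG was also searched in the lists of lysosomal genes described below. It was in 1 of 7 promoters found for other glycosidases, 2 of 4 for peptidases and 2 of 6 for membrane proteins. None of the 4 for V-ATPase genes, 3 for lipid activators and lipases, 2 for the sulfatase list or 1 for enzyme sorting held it. The longer GTCACGTG, absent from the NEU1 promoter, was in 1, 2 and 1 promoters of the first 3 of these lists. These matches describe letters only, and no binding was measured in these samples.

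The groups were tested with limma on log2(CPM + 0.1), adjusted by the Benjamini-Hochberg method over the whole table, with an adjusted p-value under 0.1 as threshold. NEU1, CTSA and GLA were up-regulated in the METH-treatment group and HEXA was not past the threshold, and all 4 log2 fold changes were positive. Of all genes tested, 33.3% of the genes were past the threshold as higher with METH and 35.8% as lower. In 3 of the 4 members every METH library lay above every PBS library, which was the case in 31.0% of all genes of the table. The table was selected on the same contrast, and the members were chosen with earlier results known, so the count of 3 in 4 is a description of these genes. By edgeR on the recovered reads the same 3 members, NEU1, CTSA and GLA, were higher at an adjusted p-value under 0.1, against 30.4% of all genes, and by DESeq2 the same 3 again, against 32.7%. The authors had chosen the table with DESeq2 on these same libraries, so these calls are not independent of that choice. Each adjustment covered only the genes of the table.

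**Figure D1:**
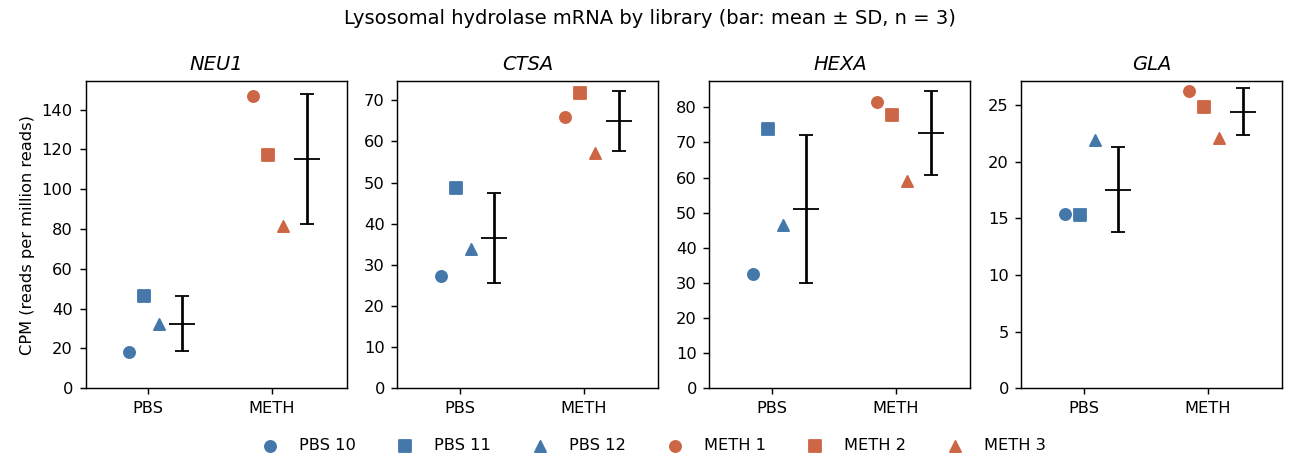
CPM of the 4 enzymes in each library, with the mean and SD of the 3 libraries of a group as a bar, and a separate vertical axis from 0 for each gene. NEU1 and CTSA are separated by group, GLA by a narrow gap of 0.209 CPM, and in HEXA the library PBS 11 lies among the METH libraries.

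NEU1 showed the largest difference of the 4. It was at 18.4, 46.2 and 32.4 CPM in PBS 10, PBS 11 and PBS 12, and at 147, 117 and 81.3 CPM in METH 1, METH 2 and METH 3. The lowest METH library was 35.2 CPM above the highest PBS library. The mean was 32.3 ± 13.9 CPM in the PBS group and 115 ± 32.8 CPM in the METH group (SD, n = 3 each). On the log2 scale NEU1 rose by 1.89 (standard error 0.35, 95% interval 1.10 to 2.67, limma adjusted p = 0.0103), or 3.69-fold. By log2 fold change NEU1 was number 81 of the 4101 genes, counted from the most up-regulated. An exact permutation test of this gene alone, 2-sided, gave p = 0.1, the smallest that 3 libraries against 3 allow. NEU1 stayed past the threshold in all 15 alternatives tried, among them each library left out in turn, where the log2 fold change lay between 1.53 and 2.19. Adjusted as if 20000 genes had been tested, an allowance for genes outside the table, its limma adjusted p-value was 0.0501.

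CTSA, which stabilises NEU1, rose by less. Its values were 27.2, 48.6 and 33.8 CPM in PBS 10, 11 and 12, and 66.0, 71.8 and 57.2 CPM in METH 1, 2 and 3. The groups were apart by 8.61 CPM. The PBS group averaged 36.5 ± 10.97 CPM and the METH group 65.0 ± 7.35 CPM (SD, n = 3 each). The rise was 0.87 on the log2 scale (standard error 0.24, 95% interval 0.31 to 1.42, limma adjusted p = 0.0305), or 1.82-fold. The exact permutation test gave p = 0.1, 2-sided. CTSA lost the call without METH 2 (limma adjusted p = 0.109) and when adjusted as if 20000 genes had been tested (limma adjusted p = 0.149).

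GLA rose by the smallest amount of the 3 that passed. PBS 10, PBS 11 and PBS 12 had 15.4, 15.3 and 21.9 CPM, and METH 1, METH 2 and METH 3 had 26.2, 24.9 and 22.1 CPM. METH 3 and PBS 12 differed by 0.209 CPM, so the separation of the groups rests on a gap smaller than the SD of either. GLA averaged 17.5 ± 3.79 CPM in the PBS group and 24.4 ± 2.09 CPM in the METH group (SD, n = 3 each). Its log2 fold change was 0.49 (standard error 0.22, 95% interval 0.00074 to 0.98, limma adjusted p = 0.0836), or 1.41-fold, and an exact permutation p of 0.1, 2-sided. The call was lost in 7 of the 15 alternatives. It was lost without PBS 10 (limma adjusted p = 0.154), PBS 11 (0.148), METH 1 (0.210) or METH 2 (0.205), without a trend in the fit (0.106), at a threshold of 0.05, and adjusted as if 20000 genes had been tested (0.408).

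HEXA did not pass the threshold in this fit, and its groups overlapped, although the authors had selected it, like every gene of the table, as differing. It was measured at 32.5, 74.0 and 46.5 CPM in PBS 10, PBS 11 and PBS 12, against 81.5, 77.7 and 59.0 CPM in METH 1, METH 2 and METH 3. PBS 11 exceeded METH 3 by 15.0 CPM and was close to METH 1 and METH 2. The averages were 51.0 ± 21.1 CPM in the PBS group and 72.7 ± 12.0 CPM in the METH group (SD, n = 3 each). HEXA differed by 0.58 on the log2 scale (standard error 0.30, 95% interval -0.098 to 1.25, limma adjusted p = 0.114), and the exact permutation p was 0.2, 2-sided. The call turned on single libraries. Without PBS 11 the log2 fold change of HEXA was 0.89 (limma adjusted p = 0.0302), without METH 3 it was 0.72 (limma adjusted p = 0.0978), and without PBS 10 it was 0.30 (limma adjusted p = 0.322). When libraries were rescaled so that their median ratios matched, HEXA also passed, at 0.54 on the log2 scale (limma adjusted p = 0.0955).

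**Figure D2:**
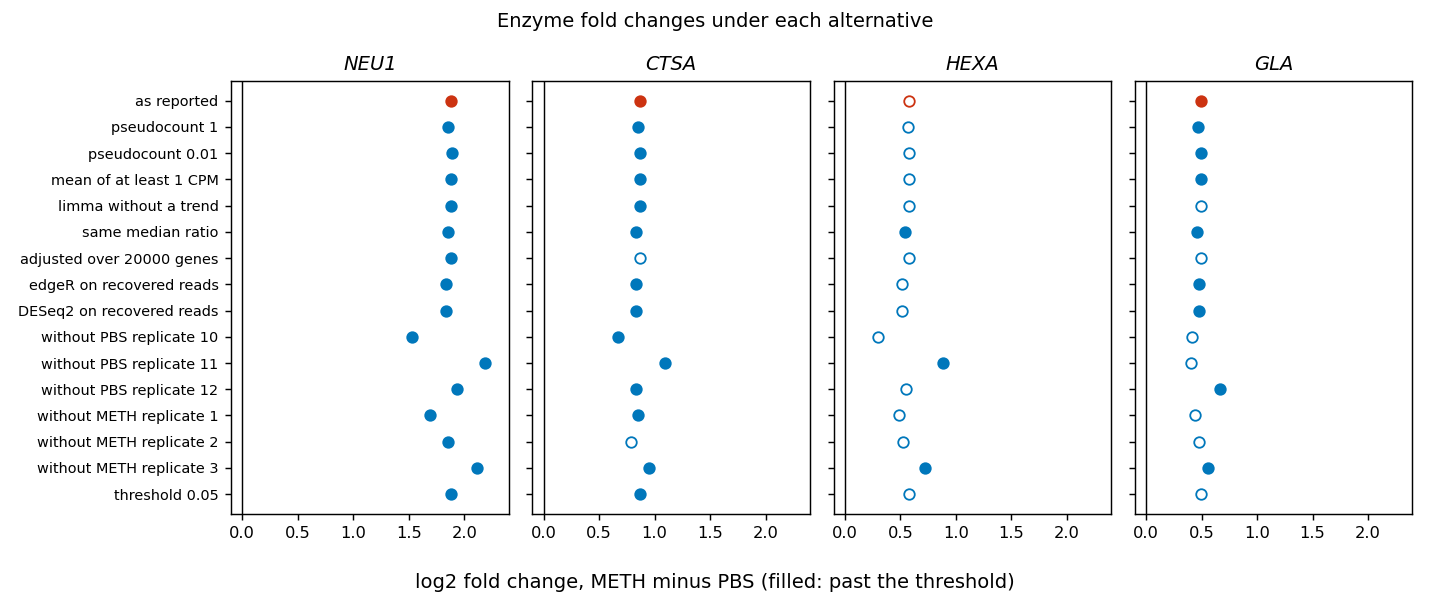
Log2 fold change of each enzyme, METH minus PBS, as reported (top row) and under the 15 alternatives, with filled points past the threshold of that row. NEU1 is filled in every row, CTSA is open in 2, GLA in 7, and HEXA is filled in 3, and every point lies right of 0.

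HEXA, NEU1 and CTSA shared an order of libraries that GLA did not. In each of the 3, PBS 10 was the lowest, PBS 12 the middle and PBS 11 the highest of the PBS libraries, while in GLA PBS 10 and PBS 11 were about equal and PBS 12 was highest. METH 3 was the lowest METH library for all 4. The same libraries took these places across other genes. Over the 1366 genes of the table called higher with METH, PBS 11 was the highest PBS library in 58.2% and METH 3 the lowest METH library in 65.7%. Over all 4101 genes these shares were 41.8% and 52.3%. Over 41 genes of the lysosomal lists in the table, the 4 members included, PBS 11 was highest in 31 and METH 3 lowest in 26. The coefficient of variation among PBS libraries was 42.9% for NEU1, 41.3% for HEXA, 30.02% for CTSA and 21.6% for GLA, and among METH libraries 28.5%, 16.6%, 11.3% and 8.55%. The genes of the table summed to 192856 CPM in METH 3, against 229751 to 243343 CPM in the other libraries. The scales that match the median ratios were 0.956, 1.06 and 0.979 for PBS 10, 11 and 12, and 1.04, 1.07 and 0.954 for METH 1, 2 and 3. The part of PBS 11 and METH 3 in the spread of the 4 enzymes was not tested beyond leaving each library out and rescaling by these medians.

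Whether the members moved by different amounts was tested on the ratio of their CPM within each library, over 6 pairs. These ratios carry no length correction, so they are read only between groups and not as levels of one gene against another. NEU1 stood higher against each of the other 3 in every METH library than in any PBS library. The ratio of NEU1 to its partner CTSA was 0.676, 0.949 and 0.961 in PBS 10, 11 and 12, and 2.23, 1.63 and 1.42 in METH 1, 2 and 3. On the log2 scale this ratio was higher with METH by 1.02 (standard error 0.25, 95% interval 0.32 to 1.72). Relative to HEXA, NEU1 was higher with METH by 1.31 (standard error 0.14, 95% interval 0.91 to 1.70), and relative to GLA by 1.39 (standard error 0.44, 95% interval 0.17 to 2.62). In these 3 pairs the groups did not overlap, the exact permutation p was 0.1, 2-sided, the smallest possible, and the Benjamini-Hochberg adjusted p over the 6 pairs was 0.2, so no pair could pass a threshold of 0.1 after adjustment.

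Among the other 3 members the ratios overlapped between groups. The log2 ratio of CTSA to HEXA differed by 0.29 (95% interval -0.066 to 0.64, exact permutation p = 0.2, 2-sided), that of CTSA to GLA by 0.37 (95% interval -0.53 to 1.28, exact permutation p = 0.4), and that of HEXA to GLA by 0.087 (95% interval -1.03 to 1.21, exact permutation p = 1.0). The last interval spans a doubling in either direction, so the data do not show that HEXA and GLA changed alike. PBS 11 was the extreme library for HEXA to GLA, at 4.84 against 2.11 in PBS 10 and 2.12 in PBS 12.

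**Figure D3:**
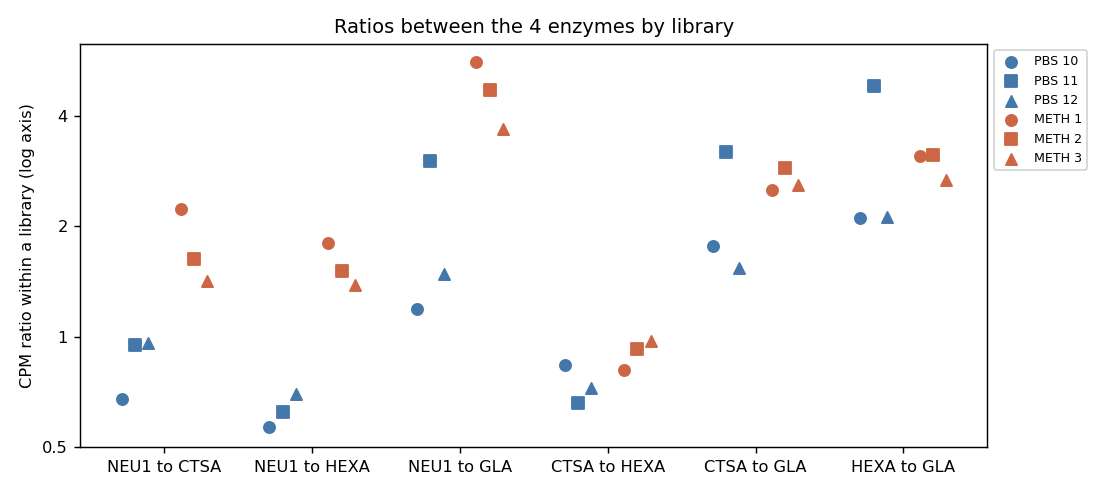
CPM ratio of each pair of enzymes within each library, on a log2 axis. The 3 ratios with NEU1 as the first gene are higher in every METH library than in every PBS library, while the 3 other ratios overlap between groups.

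Levels of different genes were compared only per length, as CPM per kb of all annotated exons. In the PBS-treatment group GLA had 7.71 ± 1.67, NEU1 6.70 ± 2.88, CTSA 6.24 ± 1.87 and HEXA 4.04 ± 1.67 CPM per kb (SD, n = 3 each). Libraries of neighbours in this order overlapped in range, while the means of CTSA and HEXA differed by more than the SD of either. GLA and HEXA, at its ends, did not overlap, with 6.72 CPM per kb in the lowest GLA library and 5.86 in the highest HEXA library. In the METH-treatment group the order was NEU1 with 23.9 ± 6.81, CTSA with 11.1 ± 1.25, GLA with 10.7 ± 0.917 and HEXA with 5.77 ± 0.955 CPM per kb. NEU1 lay above the others in every METH library, from 16.9 to 30.5 CPM per kb, while CTSA and GLA differed by less than their spread. The order depends on the length used. Per kb of the longest transcript, HEXA (7.38 CPM per kb) was above NEU1 (7.003 CPM per kb) with PBS, and NEU1 and CTSA overlapped with METH. From all exons to the longest transcript the length fell from 12.6 to 6.91 kb for HEXA and from 5.86 to 3.06 kb for CTSA, but only from 4.82 to 4.62 kb for NEU1.

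Partners of the members are also in the table. GLB1, the beta-galactosidase held by CTSA, had 25.2, 48.0 and 29.8 CPM with PBS and 59.5, 55.7 and 44.6 CPM with METH (log2 fold change 0.68, standard error 0.27, limma adjusted p = 0.0658), and PBS 11 lay above METH 3. Its call was lost without PBS 10 (0.48), PBS 12 (0.60), METH 1 (0.59) or METH 2 (0.64 on the log2 scale).

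Within the complex of CTSA, NEU1 and GLB1, the ratio of CTSA to GLB1 stayed between 1.01 and 1.29 in all 6 libraries. It differed between groups by 0.19 on the log2 scale (95% interval -0.049 to 0.43, exact permutation p = 0.2, 2-sided). The ratio of NEU1 to GLB1 was 0.729, 0.961 and 1.09 with PBS and 2.47, 2.10 and 1.82 with METH, higher by 1.21 on the log2 scale (95% interval 0.62 to 1.80, exact permutation p = 0.1, 2-sided, 0.5 when adjusted over the 5 partner pairs).

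The lipid-binding helpers of these enzymes did not pass the threshold. PSAP, the precursor of the saposins that present glycolipids to GLA and other hydrolases, had from 403 to 758 CPM with PBS and from 631 to 864 CPM with METH (log2 fold change 0.45, standard error 0.30, limma adjusted p = 0.180). Without PBS 11 PSAP passed, at 0.67 on the log2 scale (limma adjusted p = 0.065). GM2A, the activator that lifts GM2 for beta-hexosaminidase A, had 7.29 to 8.11 CPM with PBS and 8.97 to 10.9 CPM with METH, without overlap (log2 fold change 0.36, standard error 0.21, limma adjusted p = 0.146). The ratios of GLA to PSAP and of HEXA to GM2A differed by 0.038 and 0.22 on the log2 scale, with exact permutation p-values of 1.0 and 0.7, 2-sided.

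Of 24 other names of lysosomal glycosidases that were listed, 9 are in the table. Of these 9, 6 were higher, none lower and 3 not past the threshold (33.3% of all genes were higher and 35.8% lower), and the median log2 fold change was 0.76, against 0.11 over all genes of the table and 0.72 over the 4 members. Among them, MANBA (beta-mannosidase, the last step of N-glycan breakdown) was higher by 0.95 on the log2 scale (limma adjusted p = 0.0339) and CTBS (chitobiase, which splits the core of N-glycans) by 0.86 (limma adjusted p = 0.0470), both with METH libraries above all PBS libraries. The call of MANBA was lost without METH 2 (0.85), and that of CTBS without PBS 12 (0.64), METH 1 (0.88) or METH 2 (0.85). In 3 of the 9 the groups were apart in this way, a share near the 31.0% of all genes. NEU1 had a log2 fold change above each of the 9, the highest of which was that of MANBA. Adjusted as if 20000 genes had been tested, none of the 9 passed with limma (edgeR and DESeq2 were not adjusted in this way).

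Of 11 listed sulfatases, sulfatase-modifying factors and HGSNAT, grouped for the breakdown of sulfated sugars, 5 are in the table. Of these 5, 2 were higher, a share near the 33.3% of all genes, among them HGSNAT (log2 fold change 0.56, limma adjusted p = 0.0485). The 1 lower gene was ARSG (log2 fold change -0.77, limma adjusted p = 0.0662), a heparan sulfate sulfatase. Of 8 listed sphingolipid activators and acid lipases 5 are in the table and 3 were higher, against 33.3% of all genes. They were ASAH1, acid ceramidase (log2 fold change 0.90, limma adjusted p = 0.0166), LIPA, acid lipase (0.72, limma adjusted p = 0.0260), and SMPD1, acid sphingomyelinase (0.67, limma adjusted p = 0.0556). Of these named genes, each but ASAH1 lost its call in some fit with 1 library left out. These were LIPA without METH 2 (0.71), HGSNAT without METH 1 (0.59), METH 2 (0.57) or METH 3 (0.51), SMPD1 without PBS 10 (0.46), PBS 12 (0.67), METH 1 (0.61) or METH 2 (0.66), and ARSG without each library but PBS 10 (-0.89 to -0.57). ASAH1 takes on the ceramide that is left once the sugars are gone.

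**Figure D4:**
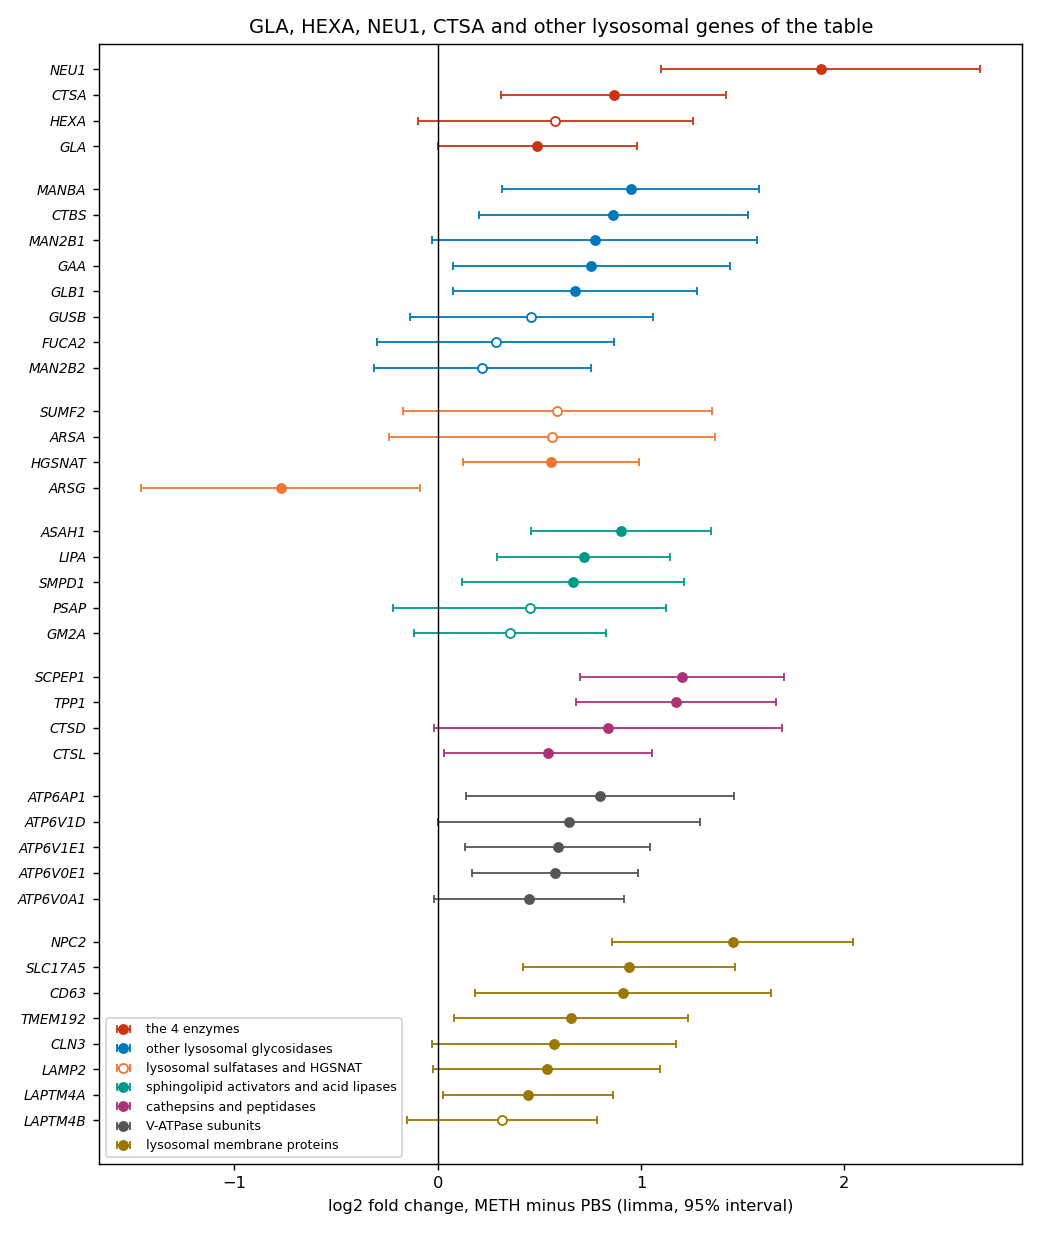
Log2 fold change, METH minus PBS, with its 95% interval by limma, for the 4 members and other genes of the lysosomal lists by group, filled where past the threshold. NEU1 has the largest value, ARSG is the gene left of 0, and the intervals of most genes overlap those of CTSA, HEXA and GLA.

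In the rest of the lysosome, 4 of 15 listed cathepsins and related peptidases are in the table. All 4 were higher, against 33.3% of all genes, with SCPEP1 (log2 fold change 1.20) and TPP1 (1.17), both at a limma adjusted p of 0.0103, and CTSD (0.84, limma adjusted p = 0.0871). CTSD lost its call without PBS 10 (0.42), PBS 12 (0.84), METH 1 (0.76) or METH 2 (0.77), with edgeR (0.70) and without a trend in the fit (limma adjusted p = 0.105). Of 18 listed genes of the V-ATPase, the pump that acidifies lysosomes, 5 are in the table. All 5 were higher, against the same 33.3%, by a median log2 fold change of 0.59. Those with the largest changes lost their calls in some fits, ATP6AP1 (0.80) without PBS 10 (0.51), PBS 12 (0.87), METH 1 (0.69) or METH 2 (0.73), ATP6V1D (0.65) without a trend (limma adjusted p = 0.104), PBS 12 (0.32) or any METH library (0.59 to 0.74), and ATP6V1E1 (0.59) without PBS 12 (0.47), METH 1 (0.60) or METH 2 (0.58). Of 19 listed lysosomal membrane and transport proteins 8 are in the table and 7 were higher, again against 33.3%. They were led by NPC2, which hands on cholesterol (log2 fold change 1.45, limma adjusted p = 0.00986), and SLC17A5, which exports the sialic acid that NEU1 releases (0.94, limma adjusted p = 0.0224). Adjusted as if 20000 genes had been tested, limma kept 2 of the 4 peptidases, none of the 5 V-ATPase genes and 1 of the 8 membrane and transport genes. SLC17A5 was not among those kept (limma adjusted p = 0.109). Of 11 listed genes of enzyme sorting the table holds 1, SORT1, which was not past the threshold (0.42, limma adjusted p = 0.167). These lists, like the members, were chosen with earlier results of these data known. The places of PBS 11 and METH 3 described above, held in 31 and 26 of 41 genes, were not shared by each gene. In SORT1 and ATP6V1D, PBS 10 was the highest PBS library and METH 1 the lowest METH library.

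Markers of cell state that are in the table also differed between the groups, and markers outside it were not analysed. Of 20 neuroblast markers, 8 are in the table and 6 were lower, against 35.8% of all genes. Among these 6 were HAND1 (log2 fold change -1.30, limma adjusted p = 0.0108) and GATA2 (-0.70, limma adjusted p = 0.0371). The 1 higher marker was CHGB (0.92, limma adjusted p = 0.0205), against 33.3% of all genes. The summed level of the 8 was 1015 to 1103 CPM with PBS and 907 to 1008 CPM with METH, so these markers were detected in every library. Without CHGB, left out after its values were seen, the sum was 772 to 883 CPM with PBS and 498 to 518 CPM with METH. Of 16 mesenchymal markers 6 are in the table and 5 were higher, against 33.3% of all genes, such as LUM (1.31, limma adjusted p = 0.0178), SNAI2 (0.97, limma adjusted p = 0.0335) and VIM (0.89, limma adjusted p = 0.0430). Their summed level was 481 to 764 CPM with PBS and 836 to 1196 CPM with METH. Of 9 glial markers 2 are in the table, ERBB3 and NGFR, and both were higher, against the same 33.3% (NGFR 1.74, limma adjusted p = 0.0451). Their sum was 1.48 to 7.54 CPM with PBS and 8.73 to 13.9 CPM with METH. Most of it was NGFR, since ERBB3 averaged 0.342 CPM with PBS and 0.653 CPM with METH, with as few as 25 reads in a library. Leaving out METH 1 took the call from SNAI2 (0.91), VIM (0.85), GATA2 (-0.68) and NGFR (1.50), METH 2 from VIM (0.77) and GATA2 (-0.72), and PBS 12 from NGFR (1.76). In bulk libraries, a change in the number of cells of a type and a change in RNA per cell cannot be told apart, and the part of these markers in the difference of the 4 enzymes was not tested.

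The genes whose levels over the 6 libraries were most like those of each member were found by Pearson's r on log2(CPM + 0.1) among 3624 other genes that averaged 1 CPM or more. For NEU1 they were FBXO18 (r = 1.00, and 0.998 within groups) and MTSS1L (r = 0.998, and 0.990 within groups). On the log2 scale FBXO18 differed by 0.46 between the groups and MTSS1L by 1.82, against 1.89 for NEU1. For CTSA they were YPEL3 (r = 0.999) and FAM43A (r = 0.996), for HEXA RPL39 (r = 0.998) and IFT43 (r = 0.997), and for GLA LRP4 (r = 0.996) and RHBDF2 (r = 0.991). None of the 8 is a lysosomal gene of the lists. The r describes 6 points that share their libraries and fall into 2 groups.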

How the data were processed

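RNA of 3 METH-treated and 3 PBS-treated SH-SY5Y samples was sequenced on the HiSeq platform. The authors deposited 1 table of genes they chose with DESeq2, with a value per library and group means in CPM (headed FPKM). Its fold changes and p-values of the authors' comparison were not used. The aligner, counting tool and genome build are not given in the sources used here. Low values (under 3 CPM) were whole multiples of 1 step in 100% of cases, within 0.00055 CPM, and reads were recovered from them. The comparison was planned for normalized values on the log2 scale. limma 3.58.1 was run in R 4.3.3 (eBayes, trend on) on all 4101 genes with 0.1 added. Single genes and ratios were compared by exact permutation, 2-sided, and the 95% intervals of ratios use the pooled SD. edgeR 4.0.16 (quasi-likelihood) and DESeq2 1.42.0 (Wald) took the recovered reads, scaled by the denominators from the steps. Other alternatives were a pseudocount of 1 or 0.01, a mean of at least 1 CPM, no trend, median-ratio scaling, a threshold of 0.05, adjustment as if 20000 genes had been tested, and leaving out each library. The fits were tested on simulated data. GENCODE 29 held 4093 of the 4101 identifiers. The members and lists were chosen with earlier results of these data known. Named were the members, GLB1, PSAP and GM2A, up to 3 genes past the threshold per list by size of change where either group averaged 1 CPM or more, and the 2 genes most like each member. Some genes that this rule names are not reported here. AC009690.1, AC009690.2, HEXA-AS1, AL008726.1, PLTP and NEURL2 (overlaps) and ERBB3, SORT1 and TFE3 (the last of small lists) were named after their values were seen. Permutation tests used scipy 1.17.1 under Python 3.11.15, and figures matplotlib 3.10.9.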

Additional observations from a re-analysis of the deposited data

How the results depend on the processing

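Every alternative kept the sign of the 4 members. Past the threshold were 3 members as reported, 1 to 4 with a library left out, and 1 (NEU1) when adjusted as if 20000 genes had been tested. With 1 library left out the log2 fold change ranged from 1.53 to 2.19 for NEU1, 0.67 to 1.09 for CTSA, 0.40 to 0.66 for GLA and 0.30 to 0.89 for HEXA. GLA, at 0.49, was not past the threshold without a trend, at a threshold of 0.05 or adjusted over 20000 genes, nor was CTSA, at 0.87, adjusted over 20000 genes, while HEXA passed with median-ratio scaling, at 0.54. Of all genes tested, 1366 were higher and 1467 lower as reported, 219 and 191 adjusted over 20000 genes, 696 and 783 at a threshold of 0.05, and 412 to 1551 and 563 to 1368 with a library left out, both lowest without METH 2. Of the listed genes of lysosome, glycolipid synthesis and transcription factors, 32 were higher and 2 lower as reported, 6 and 0 adjusted over 20000 genes, 15 and 0 at a threshold of 0.05, and 8 to 38 and 0 to 1 with a library left out, the lowest count of higher genes without METH 2. Levels per kb of the longest transcript with PBS were 12.3 for GLA, 7.38 for HEXA and 12.0 for CTSA. Ratios between members or partners moved by less than their SD with either other pseudocount and with each library left out. Of the other named genes, 509 of 615 results kept their side of the threshold, 103 fell short of it and 3 passed it anew. The causes were not tested. No paired analysis was possible because the PBS columns carry numbers that the labels do not. With 3 libraries a group, groups of this size allow no exact p-value under 0.1.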

Other observations

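Enzymes that make the lipids on which GLA, HEXA and NEU1 act were also in the table. Of 28 listed genes of glycosphingolipid synthesis 7 are there, with 3 higher and 1 lower (over all genes 33.3% were higher and 35.8% lower), and a median log2 fold change of 0.60. CERS4, a ceramide synthase, rose from 13.6, 29.8 and 21.8 CPM in PBS 10, 11 and 12 to 85.9, 89.1 and 53.4 CPM in METH 1, 2 and 3 (log2 fold change 1.84, limma adjusted p = 0.00897). B4GALT5 and B4GALT6 both add galactose to glucosylceramide to give lactosylceramide. B4GALT5 rose from 38.03, 20.0 and 36.6 CPM to 63.9, 73.1 and 73.7 CPM (log2 fold change 1.21, limma adjusted p = 0.0171), whereas B4GALT6 fell from 10.9, 2.94 and 5.68 CPM to 2.39, 2.20 and 4.03 CPM, with overlap between the groups (log2 fold change -1.01, limma adjusted p = 0.0863). B4GALT6 lost its call without PBS 10 (-0.54), PBS 12 (-1.01), METH 1 (-0.91) or METH 2 (-0.85). The call of CERS4 and that of B4GALT5 held in all 15 alternatives.

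Of 8 listed transcription factors and regulators of lysosomal genes 3 are in the table and 2 were higher, against 33.3% of all genes. TFEB, which acts on many lysosomal genes, had 4.87, 11.1 and 6.09 CPM with PBS and 15.6, 15.3 and 7.43 CPM with METH (log2 fold change 0.80, limma adjusted p = 0.0956), with PBS 11 above METH 3. FNIP2, a partner of folliculin, was higher by 0.78 on the log2 scale (limma adjusted p = 0.0585). TFEB lost its call without PBS 10 (0.55), PBS 12 (0.71), METH 1 (0.62) or METH 2 (0.63), with a pseudocount of 1 (limma adjusted p = 0.101) and without a trend (limma adjusted p = 0.112), and FNIP2 without PBS 12 (0.56) or any METH library (0.58 to 0.90).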
